A study of Mus musculus with 15 samples.

Results

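Immediate early genes are switched on within minutes of a stimulus, without new protein having to be made. The 10 described here were chosen by symbol from the 46078 genes in the deposited count table as genes known to respond when a tissue is cut up and digested into single cells: the AP-1 subunits Fos, Fosb, Jun, Junb and Jund, the transcription factors Egr1 and Atf3, and Ier2, Ier3 and Dusp1. All 10 were detected in every library and passed the filter on low counts in every comparison.

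The libraries are bulk RNA sequencing of the podocyte fraction of kidneys from male C57BL/6J mice, which the study made by digesting the cortex with enzymes and collecting nephrin-positive cells with magnetic beads. Young mice were 4 months old and were not injected (n = 5). Aged mice were 21 months old and were injected each week for 8 weeks with 12 mg/kg of either the IgG2a control antibody (clone 2A3, n = 4) or the anti–PD-1 antibody (clone RMP1-14, called aPD1ab, n = 4), which blocks the inhibitory receptor PD-1. The labels list 5 mice in each group and give 47 days in the titles of the aPD1ab samples. Each column of the count table carries a bare number, and 13 columns were placed in a group by the numbers printed beside the points of the study's principal component plot of podocytes, while 2 columns that could not be placed were not used. The libraries are called by group and by their order among the columns. Young mice had no injection, so age and injection cannot be told apart, and no batch or day of isolation is named.

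Immediate early genes are kept poised in resting cells. Kinases of the ERK, p38 and cAMP pathways phosphorylate factors that already sit at their promoters, such as CREB at the cAMP response element (CRE) and serum response factor at the CArG box. Their mRNAs are short-lived, and among their products are both the AP-1 factors that switch on the next set of genes and inhibitors, such as the phosphatase Dusp1, that end the signal. Warm enzyme digestion of solid tissue is known to induce them together with heat shock genes.

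RefSeq promoters (GRCm38.p6, 250 bases before to 50 after the start) were at hand for 8 of the 10 genes, all but Egr1 and Ier2. The RefSeq start of Jund lies more than 1 kilobase before the GENCODE gene given below, and those of Atf3 and Dusp1 lie within the GENCODE genes, so the windows of these 3 are not next to the outer ends printed for them. In the 250 bases before the start, the 5-letter core of the CRE (TGACG, or CGTCA on the other strand) was found in 5 of the 8, namely Fos, Fosb, Junb, Atf3 and Dusp1, and in 17.9% of all 32536 promoters. The full CRE, TGACGTCA, which holds that core, was found in Dusp1 and in 1.56% of all promoters. The TATA box (TATAAA or TTTATA) was found in Fos and in 12.3% of all, and the GC box (GGGCGG or CCGCCC) in 6 of the 8 and in 33% of all. No CArG box was found in these windows (1.48% of all promoters held one), nor the AP-1 site TGAGTCA or TGACTCA (4.45%). Bases farther upstream were not searched, so any site there would have been missed. The 150 bases before the start are shown for the 5 genes that hold the CRE core, 5′ to 3′ in the direction of transcription, with capitals marking the CRE core, the full CRE in Dusp1 and the TATA box in Fos (Fos at chr12:85473740-85473889, plus strand, Fosb at chr7:19310046-19310195, minus strand, Junb at chr8:84978749-84978898, minus strand, Atf3 at chr1:191183334-191183483, minus strand, and Dusp1 at chr17:26508473-26508622, minus strand).
Fos: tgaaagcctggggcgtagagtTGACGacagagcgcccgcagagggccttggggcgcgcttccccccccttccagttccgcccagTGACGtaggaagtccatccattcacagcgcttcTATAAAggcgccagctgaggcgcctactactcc
Fosb: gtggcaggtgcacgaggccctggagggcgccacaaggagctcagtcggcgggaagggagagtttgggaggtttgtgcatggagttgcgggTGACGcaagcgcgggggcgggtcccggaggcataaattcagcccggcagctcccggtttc
Junb: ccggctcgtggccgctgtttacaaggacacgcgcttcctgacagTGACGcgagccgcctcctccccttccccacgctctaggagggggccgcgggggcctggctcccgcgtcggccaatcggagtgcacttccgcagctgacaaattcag
Atf3: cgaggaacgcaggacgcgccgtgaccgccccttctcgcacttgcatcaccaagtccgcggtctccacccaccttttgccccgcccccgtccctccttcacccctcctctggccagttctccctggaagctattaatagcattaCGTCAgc
Dusp1: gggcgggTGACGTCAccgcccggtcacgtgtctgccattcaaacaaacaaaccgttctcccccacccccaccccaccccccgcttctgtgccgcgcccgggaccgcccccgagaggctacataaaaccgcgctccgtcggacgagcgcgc
A match is a description of the letters only, and whether any factor sat there was not measured. The TATA box of Fos lay 33 to 28 bases before the start, and the full CRE of Dusp1 lay 143 to 136 bases before it.

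Total counts were 21962193 to 27685122 in the young, 20500755 to 32717100 in the aged IgG2a and 19912969 to 31493051 in the aged aPD1ab libraries, so that 3 counts stood for 0.0917 to 0.151 CPM (counts scaled to library size). No pair of libraries agreed within sampling noise. The summed level of 10 podocyte markers was 896 to 1450 CPM in young, 536 to 730 in aged IgG2a and 277 to 877 in aged aPD1ab libraries, and that of 10 proximal tubule markers was 9148 to 13849, 1286 to 6732 and 6828 to 19717 CPM. That of 8 macrophage markers was 1700 to 3170, 2652 to 7965 and 2033 to 4535 CPM. The nephrin gene Nphs1 itself was at 43.2 to 81.3 CPM in young and 4.1 to 19.4 CPM in aged IgG2a libraries, and in every library the proximal tubule sum was larger than the podocyte sum. In bulk RNA, fewer cells of a type and less RNA per cell cannot be told apart. Aged IgG2a libraries 1 and 4 and aged aPD1ab library 2 each stood apart. Library 1 had tubule and macrophage sums (6732 and 2652 CPM) away from libraries 2 to 4, and library 4 had the lowest immediate early genes. Aged aPD1ab library 2 had a tubule sum of 19717 CPM against 6828 to 7556 in the rest of its group, and the lowest podocyte sum, 277 CPM. Results of the 10 members that rest on any of the 3 are given with and without it. Those of other genes are given without library 4 in places, and otherwise with all libraries only.

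The 10 genes were among the most abundant mRNAs of this preparation. Together they took 0.463% to 0.729% of all counts in young, 0.173% to 0.922% in aged IgG2a and 0.465% to 0.857% in aged aPD1ab libraries. By the mean count per kilobase of exon over the 13 libraries, Fos ranked 39, Atf3 86, Junb 93, Egr1 109 and Jun 114 among all genes, and Dusp1, Ier3, Ier2, Fosb and Jund followed at ranks 181, 186, 209, 315 and 367.

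Fos (chromosome 12, 85473890 to 85477273, GENCODE M21 on GRCm38) encodes the best known inducible subunit of AP-1, which binds DNA only when paired with a Jun protein. It was at 1365, 1204, 1203, 1457 and 1508 CPM in the young libraries, 2336, 1867, 2203 and 570 CPM in the aged IgG2a libraries and 1849, 1142, 1189 and 1460 CPM in the aged aPD1ab libraries. Aged IgG2a libraries 1 to 3 were the highest of all 13 and library 4 was the lowest, so the group spanned both other groups. Fosb (chromosome 7, 19302696 to 19310051), its relative that also gives rise to a long-lived truncated protein, was at 673, 624, 550, 593 and 784 CPM in young, 697, 609, 953 and 139 CPM in aged IgG2a and 580, 433, 387 and 607 CPM in aged aPD1ab libraries. Fosb differed from Fos in that aged IgG2a libraries 1 and 2 lay within the young range.

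Jun, Junb and Jund are the partners, of which Jun is the strongest activator, Junb often counters it and Jund is the most steadily expressed. Jun (chromosome 4, 95049034 to 95052222) was at 599, 500, 446, 462 and 764 CPM in young, 1193, 894, 1379 and 319 CPM in aged IgG2a and 917, 664, 595 and 886 CPM in aged aPD1ab libraries. Junb (chromosome 8, 84974484 to 84978718) was at 323 to 691 CPM in young, 355 to 1244 in aged IgG2a and 483 to 947 in aged aPD1ab libraries. Jund (chromosome 8, 70698949 to 70700616) was at 124, 80.9, 63.5, 65.4 and 136 CPM in young, 143, 141, 270 and 77.4 CPM in aged IgG2a and 220, 131, 171 and 228 CPM in aged aPD1ab libraries. Junb and Jund were lowest in young library 3 rather than in aged IgG2a library 4, and these were the only members of which that was true. Only 1 aged aPD1ab library, library 2, had Jund within the young range. The Junb locus overlaps that of Prdx2 on the other strand, which had 1318 to 5649 counts, and as the strand setting of the counting is not given in the sources used here, reads of the overlap cannot be told apart.

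Egr1, a zinc finger factor induced by ERK signaling, was at 828 to 1213 CPM in young, at 1587, 1344, 1688 and 380 CPM in aged IgG2a and at 753 to 1394 CPM in aged aPD1ab libraries. Atf3 (chromosome 1, 191170296 to 191218039), a stress-induced member of the ATF/CREB family, was at 535, 479, 398, 496 and 739 CPM in young, 906, 821, 1094 and 203 CPM in aged IgG2a and 838, 408, 652 and 636 CPM in aged aPD1ab libraries. In both genes aged IgG2a library 4 was the lowest of the 13 libraries and the other aged IgG2a libraries were above every young library.

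Dusp1 (chromosome 17, 26505590 to 26562128), the phosphatase that switches off p38, JNK and ERK, was at 496, 410, 433, 365 and 547 CPM in young, 558, 848, 1066 and 221 CPM in aged IgG2a and 565, 373, 472 and 539 CPM in aged aPD1ab libraries. Ier3 (chromosome 17, 35821684 to 35822923), a small protein of the survival response, was at 134, 91.6, 95.3, 159 and 139 CPM in young, 309, 207, 246 and 76.5 CPM in aged IgG2a and 217, 136, 240 and 205 CPM in aged aPD1ab libraries. Ier2 (chromosome 8, 84661331 to 84662852), a nuclear protein induced by growth factors, was at 117 to 220 CPM in young, 113 to 363 in aged IgG2a and 150 to 289 in aged aPD1ab libraries. Within young mice, library 5 had the highest level for 9 of the 10 genes and library 3 the lowest for 8, and within aged aPD1ab mice library 1 was highest for 7 and library 2 lowest for 8. Libraries of 1 group thus differed together across the members, by 1.25-fold for Fos to 2.15-fold for Jund between the highest and the lowest young library. The locus of Dusp1 overlaps that of Ergic1 on the other strand (768 to 2312 counts), with the same limit as for Junb.

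**Figure D1:**
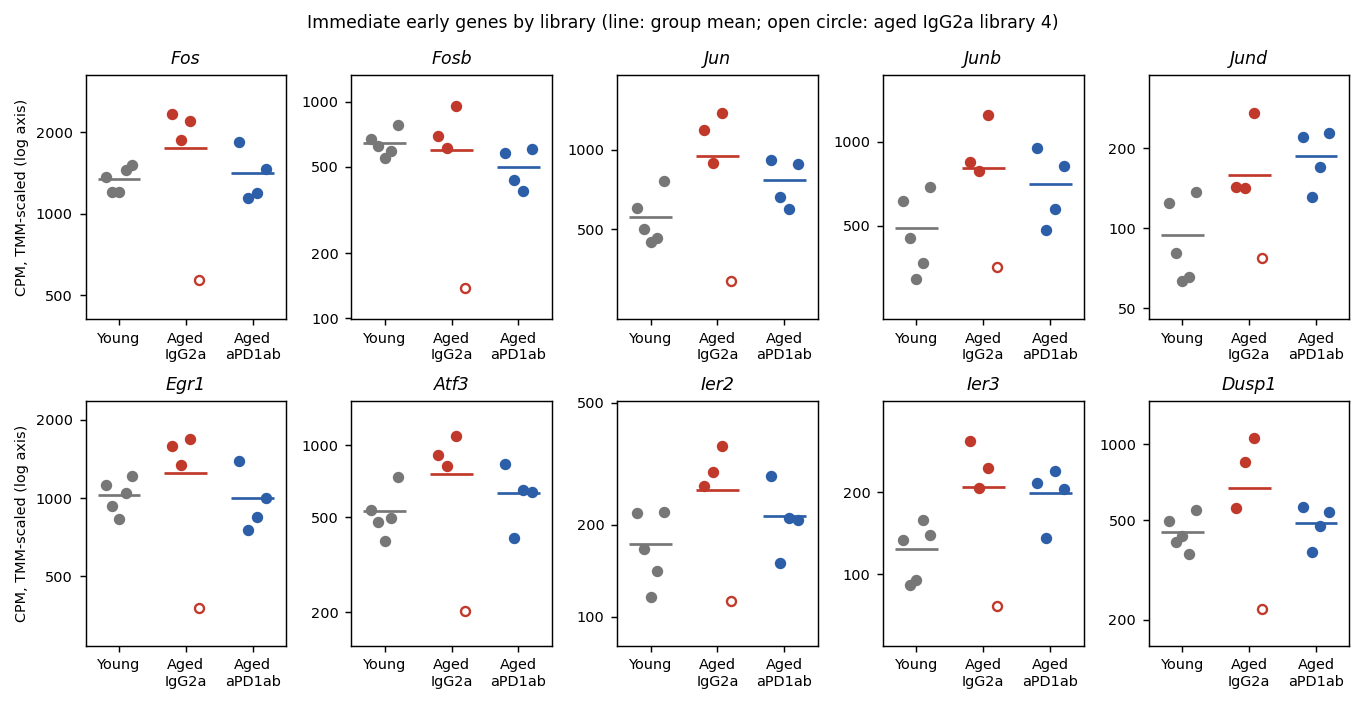
Each point is the level of a gene in 1 library, in CPM scaled by TMM (a scaling between libraries that assumes most genes are unchanged) on a log axis, for young (n = 5), aged IgG2a (n = 4) and aged aPD1ab mice (n = 4), with a line at the group mean. The open circle is aged IgG2a library 4, which was the lowest of all 13 libraries for 8 of the 10 genes, while aged IgG2a libraries 1 to 3 lay above every young library for 9 of them.

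In aged IgG2a library 4 the immediate early genes were low together. It was the lowest of the 13 libraries for 8 of the 10 genes, a place it held for 12.1% of the 16330 genes expressed, and 9 of the 10, all but Jund, were over 2-fold below every other aged IgG2a library, as were 0.735% of all genes. The members lay at a median of 3.78-fold below the median of the other aged IgG2a libraries, against 0.999-fold over all genes, and ranged from 1.85-fold for Jund to 5.03-fold for Fosb. These folds were at percentiles 96.9 to 99.9 of the fall over all genes. The highest of the 13 libraries was aged IgG2a library 3 for 8 members and library 1 for Fos and Ier3, so the lowest and the highest levels of most members came from the same group.

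**Figure D2:**
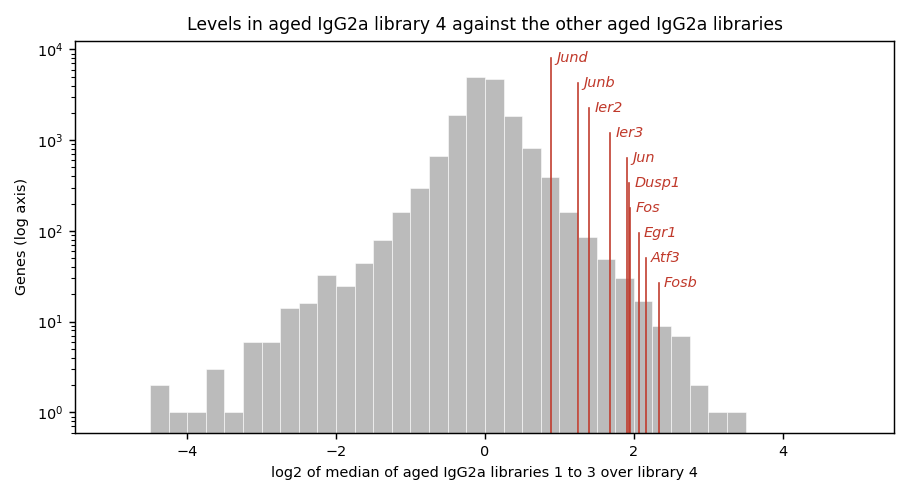
Grey bars count genes (log axis) by the log2 ratio of the median of aged IgG2a libraries 1 to 3 over library 4, and red lines mark the 10 immediate early genes. All 10 lie to the right of 0, at 1.85-fold to 5.03-fold below the other libraries, while the median gene was at 0.999-fold.

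Other genes of the dissociation response were low in library 4 too, while the summed mRNA of genes that carry the signal to them was not. The summed level of 43 other immediate early genes was 0.413 of the median of the other aged IgG2a libraries, with 24 of the 43 at their lowest of the 13 libraries there, and that of 12 heat shock genes was 0.437 of it, with 10 of the 12 at their lowest. The summed level of 20 upstream kinases and factors was 1.05 of it, with 3 of 20 at their lowest and 7 at their highest. That of 14 other DUSP phosphatases and ERK feedback genes was 0.763, with 5 of 14 at their lowest. Over all genes, 12.1% were at their lowest and 12.2% at their highest of the 13 libraries in library 4. Several other measures of library 4 differed as well. Mitochondrially encoded genes took 54.9% of its counts, the most of the 13 libraries (29.3% to 46.2% in the other aged IgG2a, 20.4% to 38.5% in aged aPD1ab and 23.1% to 30.4% in young libraries), 19557 genes were detected, the fewest, and the summed T and B lymphocyte markers were 2.37 times the median of the other aged IgG2a libraries, with 6 of 9 at their highest of the 13 and none at 0. Jchain of plasma cells was at 755 CPM there against 273 to 421 in the other 3. Podocyte, proximal tubule and macrophage sums were 0.874, 0.820 and 0.868 of the median of the others, within the range of the other aged IgG2a libraries. The part of any of these in the low immediate early genes was not tested.

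**Figure D3:**
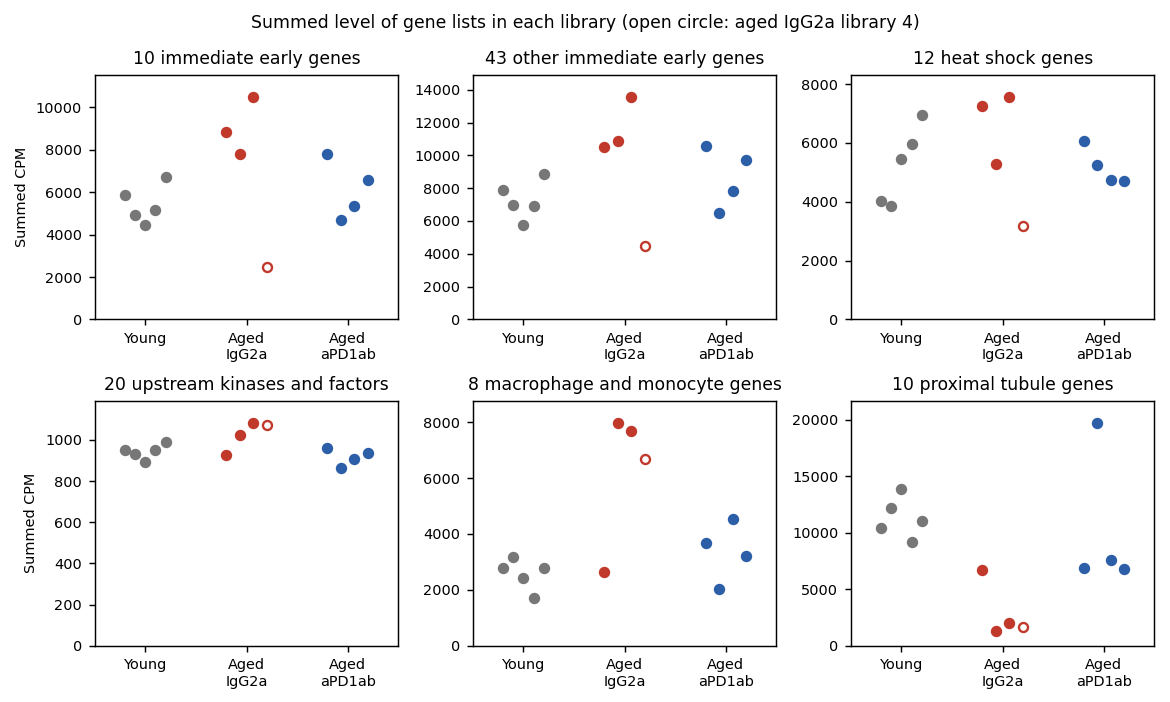
Summed CPM of 6 gene lists in each library, in young (n = 5), aged IgG2a (n = 4) and aged aPD1ab mice (n = 4). The open circle, aged IgG2a library 4, is the lowest of 13 for the 10 immediate early genes, the 43 other immediate early genes and the 12 heat shock genes, but not for the 20 upstream kinases and factors, the macrophage or the proximal tubule genes.

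The comparison of aged IgG2a with young mice asks how age with injection of a control antibody relates to these genes. With all libraries, most of the immediate early genes leaned higher, but no single one passed the test. None of the 10 passed the test at an adjusted p under 0.05 (quasi-likelihood fit in edgeR, p adjusted over all genes by Benjamini-Hochberg), against 17.4% of the 15953 genes tested, and 4 had an unadjusted p under 0.05, as 5771 of all genes did. DESeq2 and voom also called 0 of the 10, beside 27.9% and 46.5% of all genes. The log2 difference was above 0 for 9 of the 10, all but Fosb, and for 8 when libraries were scaled by their totals alone, which put Egr1 at -0.024 and moved the median of all genes to -0.38. The median of the members was 0.65 against 0.038 over all genes, or 0.26 against -0.38 by totals.

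Jun differed by 0.83 ± 0.36 on the log2 scale (SE, adjusted p = 0.127 from edgeR), Ier3 by 0.82 ± 0.34 (adjusted p = 0.109) and Jund by 0.82 ± 0.35 (adjusted p = 0.125). Fos differed by 0.43 ± 0.34 (adjusted p = 0.389 from edgeR), Egr1 by 0.34 ± 0.36 (0.524) and Fosb by -0.043 ± 0.42 (0.952). The differences of Junb, Ier2, Dusp1 and Atf3 lay in between, at 0.79, 0.66, 0.65 and 0.58, with adjusted p of 0.131 to 0.318.

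This outcome rested in part on library 4. As that library was singled out for its low levels of these same genes, leaving it out raises the aged IgG2a values by construction, and what follows is a description of how much. Without it, Jun rose by 1.11 ± 0.23 (edgeR adjusted p = 0.0312), Ier3 by 1.08 ± 0.21 (0.0266) and Atf3 by 0.88 ± 0.22 (0.0493), so that 3 of 10 were called, with 6.23% of all genes called in that fit and 2.98% called higher. A further 3 members, Fos (0.71), Dusp1 (0.92) and Ier2 (0.89), were at an adjusted p of 0.0520, 0.0521 and 0.0529, and the rest, Junb at 1.02, Egr1 at 0.63, Jund at 1.02 and Fosb at 0.27, ran from 0.0646 to 0.397. In libraries 1 to 3, 9 of the 10 genes, all but Fosb, were above every young library, as were 6.55% of all genes, whereas with library 4 no member was (4.78% of all genes). Without library 1 in place of library 4, 0 of the 10 were called while 45.6% of all genes were. With both left out, a choice made after the values were seen that leaves 2 aged IgG2a libraries, 9 of the 10 were higher, all but Fosb (40.8% of all genes called and 20.2% called higher), led by Dusp1 at 1.15 ± 0.17 (edgeR adjusted p = 0.000627). The macrophage sum was above every young library in aged IgG2a libraries 2 to 4, library 4 included, and 7 of the 8 macrophage markers rose in the comparison with all libraries (9.05% of all genes called higher), with 8 of 10 proximal tubule markers lower (8.38% called lower). Without library 4, 2 of the 8 macrophage markers were called higher and 1 of the 10 proximal tubule markers lower (2.98% and 3.25% of all genes), at medians of 1.196 and -1.64 against 1.27 and -1.81 with it. Their part in the immediate early genes was not tested.

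**Figure D4:**
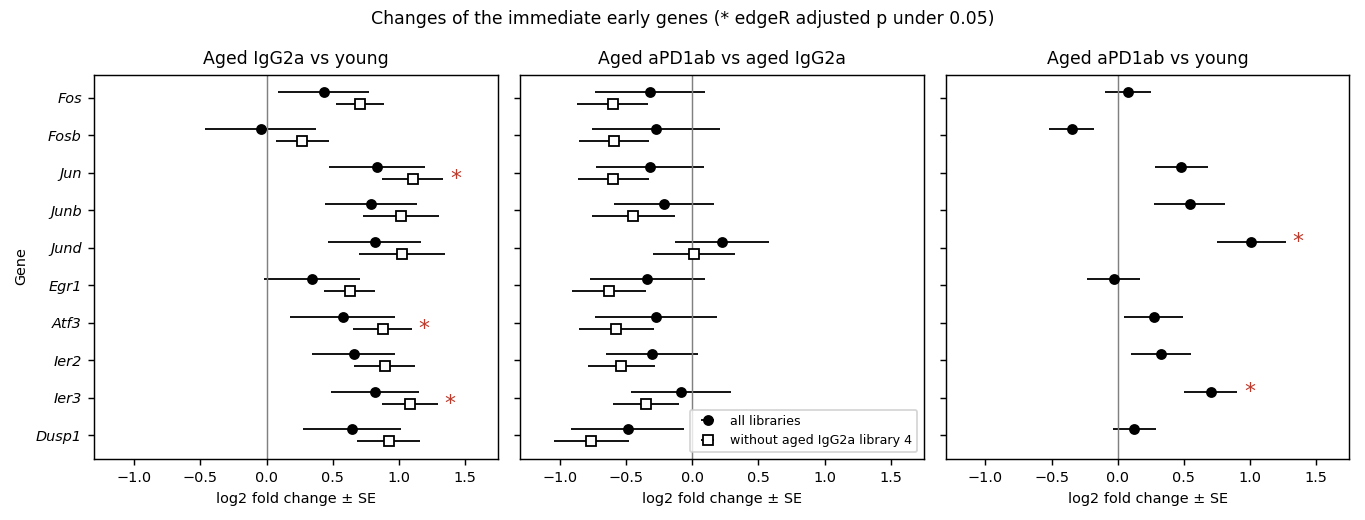
Points are log2 fold changes and bars their SE from edgeR for each gene in 3 comparisons, with all libraries (filled) and without aged IgG2a library 4 (open), and a star marks an adjusted p under 0.05. Without library 4, Jun, Atf3 and Ier3 passed the test in aged IgG2a vs young, and in aged aPD1ab vs young Jund and Ier3 passed it.

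Between aged aPD1ab and aged IgG2a mice, which asks what blocking PD-1 changed, none of the 10 genes passed the test, but neither did any of the 15530 genes tested (0% called by edgeR). Of the members 0 had an unadjusted p under 0.05, as 4341 of all genes did. DESeq2 called 2373 genes (15.3%) and voom 6160 (39.7%), and each called 0 of the 10. The log2 difference was below 0 for 9 of the 10, all but Jund, and for 7 when libraries were scaled by their totals alone, where Junb and Ier3 turned to 0.053 and 0.10 and the median of all genes was 0.24. All 8 macrophage markers were below 0 as well, at a median of -0.98, and all 10 proximal tubule markers were above 0, at a median of 1.82, with none called, and their part in the members' differences was not tested. The largest difference of a member was Dusp1 at -0.49 ± 0.43 (SE, edgeR adjusted p = 0.468), followed by Egr1 at -0.34 ± 0.43 (0.636), and Jund was at 0.23 ± 0.36 (0.700). The SE of the members ran from 0.35 to 0.48, and changes well above their SE could have gone uncalled here. Dusp14, outside the members, was at 1.55 ± 0.44 in this fit and did not pass the test (edgeR adjusted p = 0.109).

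Without library 4 the median difference of the members went from -0.29 to -0.58, with Dusp1 at -0.76 ± 0.28 (edgeR adjusted p = 0.265), Egr1 at -0.63 ± 0.28 and Fos at -0.60 ± 0.27, and 0 of the 10 and 0 of all genes were called. Fos and Fosb were then lower in every aged aPD1ab library than in every aged IgG2a library, as were 5.75% of all genes, whereas with library 4 no member was (4.65%). By construction, leaving out the library with the lowest levels moves these differences down. With library 1 also left out, again chosen after the values were seen, Dusp1 was lower, at -0.98 ± 0.23 (edgeR adjusted p = 0.0363), with 15.1% of all genes called and 5.52% called lower, and it was the only member to pass. Without aged aPD1ab library 2 in place of these, 0 of the 10 and 0% of all genes were called, and the median of the members was -0.20. With only aged IgG2a library 1 left out, 0 of the 10 were called, beside 30.4% of all genes. The median of the members was -0.20 in that fit too.

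Between aged aPD1ab and young mice, a comparison free of both aged IgG2a libraries, Jund and Ier3 were higher and the other 8 genes did not pass the test, with 22.4% of the 15986 genes called and 12.4% called higher. Jund rose from 94.1 ± 34.0 CPM (SD, n = 5) to 187 ± 45.4 (SD, n = 4), by 1.01 ± 0.26 on the log2 scale (SE, edgeR adjusted p = 0.0216). Ier3 rose from 124 ± 29.1 CPM to 199 ± 45.0, by 0.70 ± 0.20 (adjusted p = 0.0323). The groups overlapped for both, since young library 5 had more Jund (136 CPM) than aged aPD1ab library 2 (131), and young libraries 4 and 5 had as much Ier3 (159 and 139) as that library (136). No member was free of overlap in this comparison, whereas 11.2% of all genes were wholly higher and 10.4% wholly lower.

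The other members ran from Junb at 0.54 ± 0.27 (edgeR adjusted p = 0.168) and Jun at 0.48 ± 0.20 (0.110) through Ier2 at 0.32, Atf3 at 0.27, Dusp1 at 0.13, Fos at 0.078 and Egr1 at -0.030 to Fosb at -0.35 ± 0.17 (0.169). Without aged aPD1ab library 2 both calls stood, with Jund at 1.15 ± 0.25 (edgeR adjusted p = 0.0127) and Ier3 at 0.85 ± 0.17 (0.0101), no other member was called, and the median of the members was 0.45 against 0.30 with it (22.5% of all genes called and 12.1% called higher). The 2 calls with all libraries were close to the threshold. Without young library 5, Jun passed it at 0.62 ± 0.19 (edgeR adjusted p = 0.0492) and Ier3 did not, so that 2 members were called there as well (17.6% of all genes called and 9.8% called higher). Leaving out young library 2 (Jund 0.0542, Ier3 0.0734) or aged aPD1ab library 4 (0.0590 and 0.0714) ended both, as did a fit of all 3 groups together, where all 13 libraries share 1 estimate of the spread (0.0551 and 0.154, with 17.8% of all genes called). Jund also lost its call without young library 4 (0.0516), and Ier3 lost its call without young library 1 (0.0579), 3 (0.0710) or 5 (0.0505), without aged aPD1ab library 1 (0.0642) or 3 (0.0820), and with scaling by totals (0.0904, with 15.6% of all genes called), all adjusted p from edgeR. The young libraries are the control of both this comparison and that of aged IgG2a mice, so the values of Jund (1.01 and 0.82) and Ier3 (0.70 and 0.82) in the 2 comparisons are not independent.

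Fosb took a smaller share of the AP-1 mRNAs in aged than in young libraries. Of the 5 subunits, counted per kilobase of exon within each library so that scaling between libraries does not enter, Fosb made up 8.85% to 9.87% in young, 3.93% to 6.86% in aged IgG2a and 5.43% to 6.60% in aged aPD1ab libraries. Both aged groups lay wholly below the young one. Jun made up 13.7% to 17.3% in young, 17.5% to 19.4% in aged IgG2a and 16.8% to 19.8% in aged aPD1ab libraries, wholly above young in the former, and Jund 3.70% to 6.11%, 4.45% to 8.21% and 7.46% to 9.25%, wholly above young in the latter. Fos, the most abundant, made up 46.2% to 58.5%, 42.1% to 51.4% and 41.7% to 46.2%, where young library 5 at 46.19% and aged aPD1ab library 2 at 46.18% nearly met. Junb took the rest, at 15.1% to 21.9%, 19.0% to 27.3% and 19.97% to 24.1%.

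When every gene was set against the same AP-1 sum, 6.25% of 16279 genes were wholly lower in aged IgG2a than in young libraries and 0.541% wholly higher, and 10.4% and 1.06% in aged aPD1ab libraries. A ratio within a library shows unequal change between the subunits and not which of them changed. These shares were chosen after the values were seen and are given as a description, with no test. Aged IgG2a library 4 had the lowest Fosb share, at 3.93%, and the aged IgG2a range without it, 5.78% to 6.86%, was still below young.

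**Figure D5:**
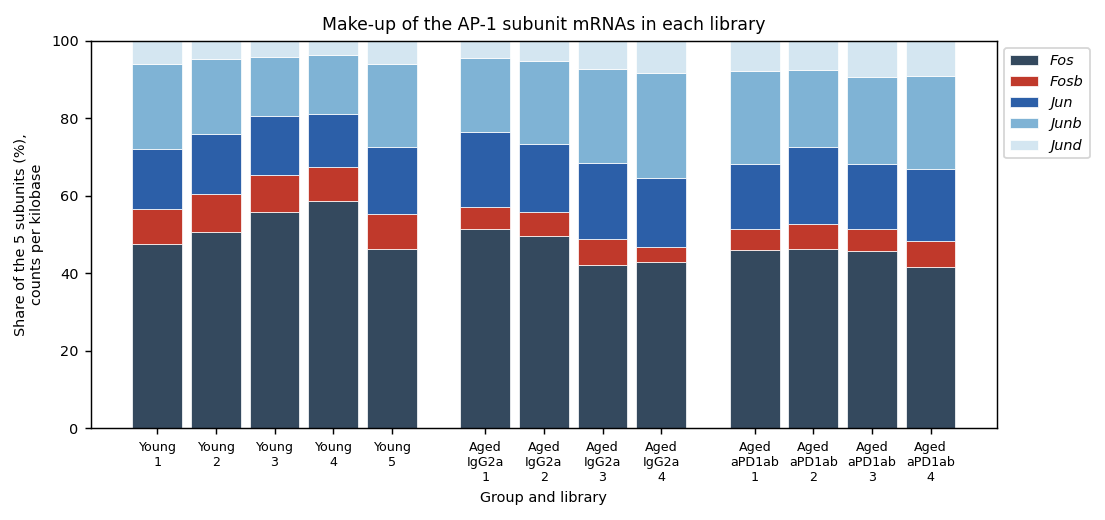
Stacked bars give the share of each AP-1 subunit mRNA in the sum of the 5, as counts per kilobase of exon in percent, in each of the 13 libraries. The red segment, Fosb, is 8.85% to 9.87% in the 5 young libraries and at most 6.86% in the 8 aged ones.

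Of the other immediate early genes, Cebpb and Myc were higher in both aged groups than in young mice. In aged IgG2a vs young, 3 of 43 were higher and 0 lower, against 9.05% and 8.38% of all genes, with a median of 0.49. They were Cebpb, a leucine zipper factor of inflammation and differentiation, at 1.76 ± 0.34 (SE, edgeR adjusted p = 0.0140), the growth factor-induced Myc at 0.99 ± 0.25, and Zfp36l2, which speeds mRNA decay, at 0.87 ± 0.24. Cebpb was at 5.70 to 9.69 CPM in young and 12.9 to 41.1 CPM in aged IgG2a libraries. These groups did not overlap, and 4.78% of all genes were likewise wholly higher. Without library 4, 9 of 43 were higher (2.98% of all genes), namely Cebpb, Rhob, Klf2, Klf6, Gadd45b, Socs3, Plk2, Btg2 and Zfp36, with the small GTPase Rhob at 1.18 and the transcription factor Klf2 at 1.21, both singled out after their values were seen, and Myc and Zfp36l2 kept their size, at 0.997 and 0.90, with an adjusted p of 0.0671 and 0.0720 from edgeR. In aged aPD1ab vs young, 9 of 43 were higher and 1 lower (12.4% and 9.97% of all genes). Cebpb at 1.83 ± 0.20, Gadd45g at 1.06 ± 0.14 and Gadd45a at 0.78 ± 0.15 were among the higher ones, as was Myc. Gadd45g and Gadd45a are stress sensors that stop the cell cycle.

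Of 12 heat shock genes, Hspa1a and Hspa1b, the inducible Hsp70 chaperones, were higher in aged IgG2a than in young mice, by 1.78 ± 0.47 and 1.88 ± 0.49 (SE, edgeR adjusted p = 0.0326 and 0.0311), where 9.05% of all genes were called higher. Both were called without library 4 as well. Hspa1a was at 112, 81.2, 88.9, 96.9 and 289 CPM in young and 480, 335, 761 and 181 CPM in aged IgG2a libraries. The groups overlapped through young library 5, also the highest young library for 9 of the members, and aged IgG2a library 4. The pair are near-identical copies, so how reads were split between them is uncertain. Hspe1, a mitochondrial chaperonin, was the only heat shock gene called in aged aPD1ab vs young, at 0.53 ± 0.15, where 12.4% of all genes were called higher.

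Among the 16 other AP-1 and ATF subunits, Batf3 at 1.35 ± 0.29 and Batf at 1.196 ± 0.35, both made by immune cells, rose in aged IgG2a vs young mice (SE, edgeR adjusted p = 0.0187 and 0.0428). There 9.05% of all genes were called higher. Of the 10 podocyte markers, 8 were lower in that comparison (8.38% of all genes). In aged aPD1ab vs young, 2 of the 16 were higher and 3 lower, against 12.4% and 9.97% of all genes. Atf5 and Atf4, factors of the amino acid and unfolded protein response, rose by 0.75 ± 0.12 and 0.65 ± 0.12. Creb5, Atf6 and Atf7 were lower, with Creb5 at -1.45 ± 0.26.

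Of 20 upstream kinases and factors, 2 were higher and 1 lower in aged IgG2a vs young mice (9.05% and 8.38% of all genes). Mapk3 (ERK1) at 0.48 ± 0.12 and the serum response factor coactivator Mrtfa at 0.57 ± 0.17 rose, and Egfr was lower at -1.05 ± 0.31 (SE, edgeR adjusted p = 0.0244, 0.0488 and 0.0425). Without library 4 none of these passed the test (edgeR adjusted p = 0.0713, 0.134 and 0.107). Of the 20 only Crem was then called, at 0.77 (adjusted p = 0.0256), where 2.98% of all genes were called higher. In aged aPD1ab vs young, 3 of 20 were higher and 4 lower (12.4% and 9.97% of all genes), among them Crem, a cAMP-induced member of the CREB family, at 0.91 ± 0.18, the ERK-activated kinase Rps6ka3 at -0.68 ± 0.10 and Mrtfb at -0.69 ± 0.12. Of 14 other DUSP phosphatases and ERK feedback genes only Spred2, an ERK inhibitor, was called in aged IgG2a vs young, at -0.37 ± 0.10, and Dusp14 (1.19 ± 0.29) and Spred2 (-0.30 ± 0.09) in aged aPD1ab vs young, where 17.4% and 22.4% of all genes were called. In aged IgG2a vs young without library 4, Spred2 kept its size, at -0.37, with an edgeR adjusted p of 0.0741. There 1 other gene of the 14 was called (6.23% of all genes). EdgeR called 0 of all 15530 genes in aged aPD1ab vs aged IgG2a, and so 0 genes of any list.

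The genes whose pattern within groups was most like that of the members came mostly from the other immediate early genes. Over the 13 libraries, after the group means were taken out, the Pearson r with the mean of the 10 members was 0.99 for Ppp1r15a, which restarts translation after stress, 0.99 for Klf6, 0.98 for Csrnp1, 0.98 for Zfp36, 0.97 for Sertad1 and 0.97 for Btg2, and 5 of the 6, all but Sertad1, were among the 43 listed. An r over 0.8 was found for 0.968% of 16330 genes and all 10 members, each of which is part of the mean it is set against. Library 4 weighs heavily here. Without it, r was over 0.8 for 1.05% of genes and 8 members, with Dusp1 at 0.71 and Ier3 at 0.56. The nearest genes outside the members were then Nr4a1 at 0.95 and Cr2 at 0.94, followed by Ppp1r15a, Klf6, Csrnp1 and Zfp36. Cr2, a complement receptor found on B cells, was at -0.32 with library 4. The SD within groups on the log2 scale was a median of 0.577 for the members and 0.330 for all genes with library 4, and 0.329 and 0.326 without it. The libraries share their depth and their cell make-up, so these values are a description.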

How the data were processed

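RNA from the podocyte fraction of 13 mice was analysed. The authors deposited raw read counts per Ensembl gene, not normalized. HISAT2, featureCounts, mm10 and GRCm38 are named in the submitters' processing notes, and versions and the strand setting are not given in the sources used here. Of 15 columns, 13 were placed in a group by the numbers beside the points of the study's principal component plot and 2 were not used. Symbols (45143 of 46078 genes), positions and exon lengths came from GENCODE M21 (GRCm38) and promoters from RefSeq (GRCm38.p6).

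Each pair of groups was fitted in R 4.3.3 with edgeR 4.0.16 (quasi-likelihood test, robust, TMM scaling, genes kept by filterByExpr, Benjamini-Hochberg adjustment over all genes tested), and a gene was called at an adjusted p under 0.05. Values are CPM scaled by TMM, and shares of AP-1 are counts per kilobase of exon. Log values used a prior count of 2 and the folds of library 4 a pseudocount of 0.5 CPM. The fit was tested on simulated data with a capped spread and no outlying library, which does not show how it performs on these groups. Alternatives were RLE factors, library totals, DESeq2 1.42.0, voom with sample quality weights in limma 3.58.1, no filter, all 3 groups in 1 fit and leaving out each library. The fits without both aged IgG2a libraries 1 and 4, and of all 3 groups without library 4, were added after seeing the data. Mice are biological replicates per the labels, and totals and floors cover counting error only.

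Named were all 10 members, up to 3 genes with the smallest p of each related list per comparison, the 6 genes with the nearest pattern and up to 2 abundant markers per cell type. Nphs1 was added as the target of the sort. The result of 1 named gene is not reported here. Members and lists were chosen with earlier results of these data known, and no list was tested as a set.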

Additional observations from a re-analysis of the deposited data

Results flagged for a closer look

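Among the 4 aged IgG2a libraries, the level of 3 genes in library 4 stood farther from the next library, relative to the range of the group on the log2 scale, than the 95% critical value for 4 samples allows. Fos was at 570 CPM, where the gap to the next library was 0.841 of the range, Egr1 was at 380 CPM with a gap of 0.847, and Atf3 was at 203 CPM with a gap of 0.8293. In all, 30 groups (10 genes in 3 groups) were looked at and chance flags about 1 in 20 of them. The members move together from library to library, so the 3 are not independent of each other. Results without library 4 stand beside the main ones.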

How the results depend on the processing

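No paired analysis was possible because the columns carry no replicate number shared between groups. In aged IgG2a vs young, 0 members were called higher, 0 to 3 when each library was left out (3 without aged IgG2a library 4), 9 without libraries 1 and 4 and 4 in the fit of 3 groups without library 4. Of all genes, 9.05% were called higher with all libraries and 2.98% without library 4. The share was 20.2% without libraries 1 and 4 and 3.44% in that fit of 3 groups. Fosb, at -0.043, ran from -0.36 to 0.27 when each library was left out (above 0 without young library 5 or aged IgG2a library 4), and was at 0.34 without libraries 1 and 4 and 0.28 in the fit of 3 groups without library 4, and Egr1 was at -0.024 by library totals. In aged aPD1ab vs aged IgG2a, 0 members were called lower (0% of all genes) and 1 without libraries 1 and 4 (5.52%). When each library was left out, Fosb ran from -0.59 to 0.057 and Junb from -0.44 to 0.088, both above 0 without aged IgG2a library 3, and Ier3 from -0.35 to 0.15, above 0 without aged IgG2a library 1 or 3 or aged aPD1ab library 2. Fosb was at 0.018 by voom, Junb at 0.053 by totals, Ier3 at 0.10 by totals and 0.19 by voom, and Jund at -0.14 without libraries 1 and 4 and -0.031 in the fit of 3 groups without library 4. In aged aPD1ab vs young, 2 members were called higher, 1 by totals, 0 in the fit of 3 groups and 0 to 2 when each library was left out. Of all genes, 12.4% were called higher with all libraries, 5.35% by totals and 9.13% in the fit of 3 groups. Fos ran from -0.083 without aged aPD1ab library 1 to 0.17 and was at -0.031 by totals, and Egr1 ran from -0.24 to 0.084, above 0 without young library 1 or 5 or aged aPD1ab library 2 or 3. None of these values that turned passed the test in either direction, and the cause was not tested.

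Counts over all genes moved more than those of the members. In aged IgG2a vs young, 2780 genes were called, with 4455 by DESeq2, 7423 by voom, 1893 with no filter and 553 to 7397 when each library was left out, the most without library 1. By totals the calls split into 331 higher and 3380 lower, against 1443 and 1337. In aged aPD1ab vs aged IgG2a, 0 genes were called, with 2863 in the fit of 3 groups and 0 to 4788 when each library was left out, again the most without library 1. In aged aPD1ab vs young, 3578 genes were called, 2369 to 3868 when each library was left out, and by totals 856 higher and 1632 lower against 1984 and 1594. The members had 35515 counts together in the library where they were lowest.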
